A study of Homo sapiens with 21 samples.

Results

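The genes described here were 9 members of the JAK-STAT pathway, the kinases JAK1, JAK2 and TYK2 and the transcription factors STAT2, STAT3, STAT4, STAT5A, STAT5B and STAT6, seen through the open chromatin called at and around them. Peaks of 21 ATAC-seq libraries that shared at least 1 bp were merged into 166736 regions, and each region within 100 kb of a protein-coding gene span was given to the nearest span. By that rule 87 regions belonged to the 9 genes, out of 19974 genes in the annotation. JAK1 had 34 of them, STAT4 15, JAK2 14, STAT3 9, STAT5B 5, TYK2 4, STAT6 3, STAT5A 2 and STAT2 1.

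The libraries came from human microglia-like cells (hMGLs) made from H9, a human embryonic stem cell line, with 3 libraries for each of 7 isogenic lines. H9 cells became haematopoietic progenitors and were then kept for 28 days in microglial medium with IL-34, TGF and M-CSF, and CD200 and CX3CL1 were added at the end. Per line, 80000 viable cells were sorted and processed by Omni-ATAC, a protocol whose transposase inserts sequencing adapters into open chromatin. The groups were unedited cells labelled WT and 6 lines made homozygous with CRISPR/Cas9 for an Alzheimer's disease variant or a loss of function: TREM2-R47H, TREM2-KO, SORL1-A528T, SORL1-KO, CD33 SNP and INPP5D SNP. For SORL1 the labels' protocol lists a R744X and an A528T conversion. H9 itself carried INPP5D G/A, and the INPP5D SNP line was A on both alleles. The 3 SORL1-A528T libraries carry that name in their titles but TREM2-KO in their genotype label, and they were grouped by title. The labels do not say how many clones stand behind a line or whether its 3 libraries were separate differentiations, so every p-value measures only the spread between these libraries.

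Cytokine receptors without a kinase domain of their own bind Janus kinases at their inner ends. Receptor pairing lets the kinases phosphorylate each other, the receptor and then STAT proteins, which dimerise, enter the nucleus and bind DNA at short palindromes. In microglia and macrophages the pathway carries interferon, IL-6, IL-10, IL-4 and GM-CSF signals, and SOCS proteins, made in response to it, shut it down again.

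All 9 genes matched RefSeq start-site windows of the GRCh38.p14 build, which run from 250 bases before to 50 bases after an annotated start, and together they had 17 windows. The build of the deposited lists was not given in the sources used here. Of 22132 windows of all genes, 37.8% lay under a peak in all 21 libraries, against 1.19% and 1.16% of the same windows shifted by 10000 bases either way, and the windows were read on that ground. The motifs searched, on both strands and with overlaps counted, were the STAT palindrome GAS (TTCNNNGAA), its STAT6 form with 1 more base in the middle, the GC box (GGGCGG), the CCAAT box (CCAAT), an ETS core (CCGGAAG) and the TATA box (TATAAA). Of the 17 windows, 0 held a GAS match, which 6.79% of all windows held, and 1 held the STAT6 form, which 5.44% held. The GC box was in 7 of the 17 and in 56.3% of all windows, the CCAAT box in 4 and in 34.6%, the ETS core in 1 and in 12.8%, and the TATA box in 0 and in 9.46%. A match is a string of letters, not a measured binding site.

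The windows below were chosen to set starts that every library called beside starts that few called, with all motif matches in capitals. The TYK2 window (chr19:10380523-10380822, minus strand) lay under a peak in 21 of 21 libraries and held 6 CCAAT boxes. The inner JAK1 window (chr1:64966500-64966799, minus strand) was also covered in 21 and held 6 GC boxes. The STAT3 window (chr17:42388393-42388692, minus strand) was covered in 21 and held 2 matches each of the GC box and the CCAAT box. The STAT6 window (chr12:57110240-57110539, minus strand) was covered in 13 libraries and likewise held 2 of each. The STAT5B window (chr17:42276342-42276641, minus strand) was covered in 10 libraries and was the richest in G and C, at 82%. The outermost STAT5A window (chr17:42287189-42287488, plus strand) was covered in 7 and held the STAT6-form match. STAT5A windows further in were covered in 7 (chr17:42287297-42287596, overlapping the outermost) and in 13 libraries (chr17:42288248-42288547).
TYK2: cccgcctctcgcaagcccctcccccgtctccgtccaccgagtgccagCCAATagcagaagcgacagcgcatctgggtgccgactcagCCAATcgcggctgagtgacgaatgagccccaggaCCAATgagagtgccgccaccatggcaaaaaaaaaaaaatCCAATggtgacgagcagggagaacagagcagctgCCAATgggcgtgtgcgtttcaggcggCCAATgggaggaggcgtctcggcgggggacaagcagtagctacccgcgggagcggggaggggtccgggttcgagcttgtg
JAK1: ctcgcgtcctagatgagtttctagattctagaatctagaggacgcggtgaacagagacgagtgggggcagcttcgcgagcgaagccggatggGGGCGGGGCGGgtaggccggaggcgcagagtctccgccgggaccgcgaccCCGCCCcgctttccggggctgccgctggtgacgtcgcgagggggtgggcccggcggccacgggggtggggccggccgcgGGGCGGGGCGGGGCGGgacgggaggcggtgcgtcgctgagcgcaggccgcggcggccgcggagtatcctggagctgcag
STAT3: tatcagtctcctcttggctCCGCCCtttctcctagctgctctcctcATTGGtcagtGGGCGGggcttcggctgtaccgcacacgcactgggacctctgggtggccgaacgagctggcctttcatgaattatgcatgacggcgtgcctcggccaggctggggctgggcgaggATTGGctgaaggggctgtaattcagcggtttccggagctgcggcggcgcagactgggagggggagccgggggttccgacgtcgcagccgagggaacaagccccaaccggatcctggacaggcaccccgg
STAT6: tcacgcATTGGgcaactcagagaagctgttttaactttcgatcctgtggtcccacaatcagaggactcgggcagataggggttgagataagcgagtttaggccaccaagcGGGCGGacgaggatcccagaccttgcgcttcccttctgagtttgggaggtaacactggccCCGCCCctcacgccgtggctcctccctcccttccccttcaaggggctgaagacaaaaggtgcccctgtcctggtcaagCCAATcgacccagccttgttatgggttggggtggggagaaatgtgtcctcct
STAT5B: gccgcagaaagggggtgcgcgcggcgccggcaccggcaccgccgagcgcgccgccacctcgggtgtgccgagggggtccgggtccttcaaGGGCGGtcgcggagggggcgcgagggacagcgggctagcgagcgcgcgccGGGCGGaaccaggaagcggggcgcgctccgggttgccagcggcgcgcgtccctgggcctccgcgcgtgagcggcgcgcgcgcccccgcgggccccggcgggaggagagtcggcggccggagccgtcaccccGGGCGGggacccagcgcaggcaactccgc
STAT5A: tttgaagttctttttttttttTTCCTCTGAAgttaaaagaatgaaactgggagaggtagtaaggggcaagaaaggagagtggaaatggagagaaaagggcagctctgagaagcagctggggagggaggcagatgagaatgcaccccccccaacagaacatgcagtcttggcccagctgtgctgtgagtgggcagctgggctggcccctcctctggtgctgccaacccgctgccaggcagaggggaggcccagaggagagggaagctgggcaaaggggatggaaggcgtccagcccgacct
STAT6 and STAT3 had equal numbers of GC and CCAAT boxes but differed in cover of the window, 13 against 21 libraries. The merged region at the STAT6 start reaches beyond its window and was called in 18. The GC content of the 17 windows ran from 41.7% at a JAK1 window called everywhere to 82% at STAT5B. Over all 22132 windows the median was 65.3% where all libraries had a peak and 53% where none had one.

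The libraries differed in depth by replicate number. Replicate 1 of the lines held 56470345 to 67369215 tags, replicate 3 held 32597739 to 52855714 and replicate 2 only 12754426 to 17462372. Of the 87 regions, 43 to 60 were called in the replicate 1 libraries, 50 to 58 in replicate 3 and 29 to 38 in replicate 2. A missing call in a replicate 2 library was therefore read only as not detected. Among the replicate 2 libraries SORL1-KO had the fewest tags, 12754426, and the most regions called, 38. The part of depth in the calls was not tested. Of the microglia markers with a start window, P2RY12 and TYROBP were called in 21 libraries, CX3CR1 in 20, CSF1R in 19 and AIF1 in 17. Of the markers of other cells, pluripotent SOX2 was called in 17 libraries, and NANOG and DPPA4 in 0. The erythroid or mast markers KIT and FCER1A were called in 16 and 3, and GATA1, KLF1, ALAS2 and CPA3 in 0, as was mesenchymal PDGFRB. Call scores are defined with the comparisons between lines. By them, 0 of the 5 microglia, 1 pluripotent, 2 erythroid or mast and 6 mesenchymal genes tested passed the limma test in any line. Of 12 erythroid or mast gene and line pairs, 4 lay below WT at an unadjusted limma p under 0.05, against 1011 of 50580 pairs over all genes. These 4 were 1 each in TREM2-R47H, TREM2-KO, SORL1-KO and INPP5D SNP, and all use the same 3 WT libraries. The part of other cell types in any result was not tested.

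**Figure D1:**
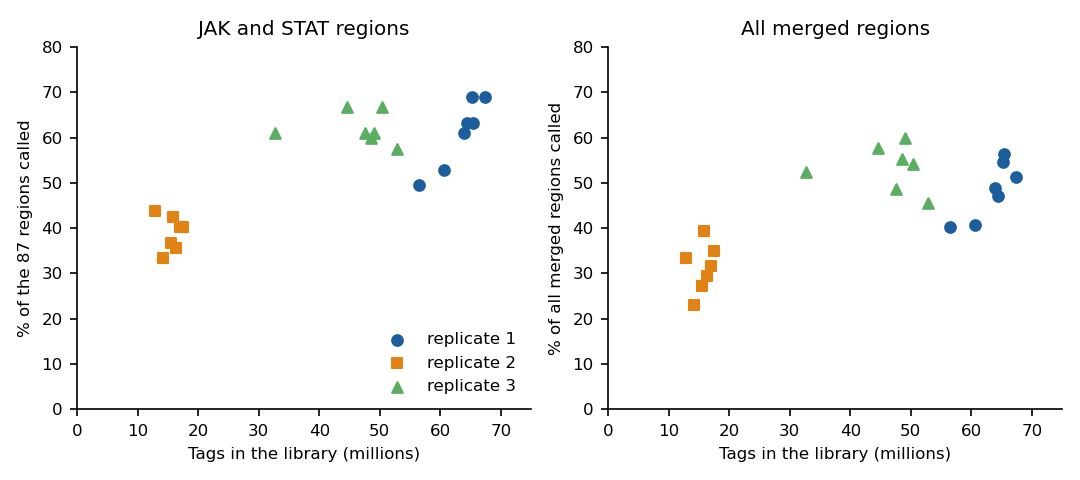
Share of regions called in each of the 21 libraries (y axis, %) against the tags in the library (x axis), for the 87 JAK and STAT regions (left) and all 166736 regions (right), 1 point per library. The 7 replicate 2 libraries have the fewest tags and lie below all other libraries in both panels.

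As a pool, but not gene by gene, regions of the JAK and STAT genes were called more widely than the regions of the series. All 21 libraries called 23 of the 87 (26.4%), against 15.4% of all regions. A further 14 (16.1%) were called in 1 library, against 25.8%. JAK1 held 12 of the 23 and STAT4 4, while STAT3 had 1 among its 9 regions and STAT5A and STAT5B 0. Of the 87, 66 touched a gene span, against 84215 of all 166736. The median width of the 87 was 895 bp and that of all regions 737 bp. The mean share of the 87 called per line was 58.6 ± 16.0% in TREM2-R47H (SD, n = 3), 58.6 ± 16.0% in CD33 SNP, 55.2 ± 9.95% in SORL1-KO, 53.3 ± 14.4% in WT, 53.3 ± 15.3% in INPP5D SNP, 52.1 ± 9.22% in TREM2-KO and 46.7 ± 12.3% in SORL1-A528T. Each SD holds the depth difference between replicates 1 to 3, which every line shared, so it cannot decide whether lines differed. The share of all regions was also lowest in SORL1-A528T, at 36.3 ± 11.7%, and was between 42.9% and 49.1% in the other lines.

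**Figure D2:**
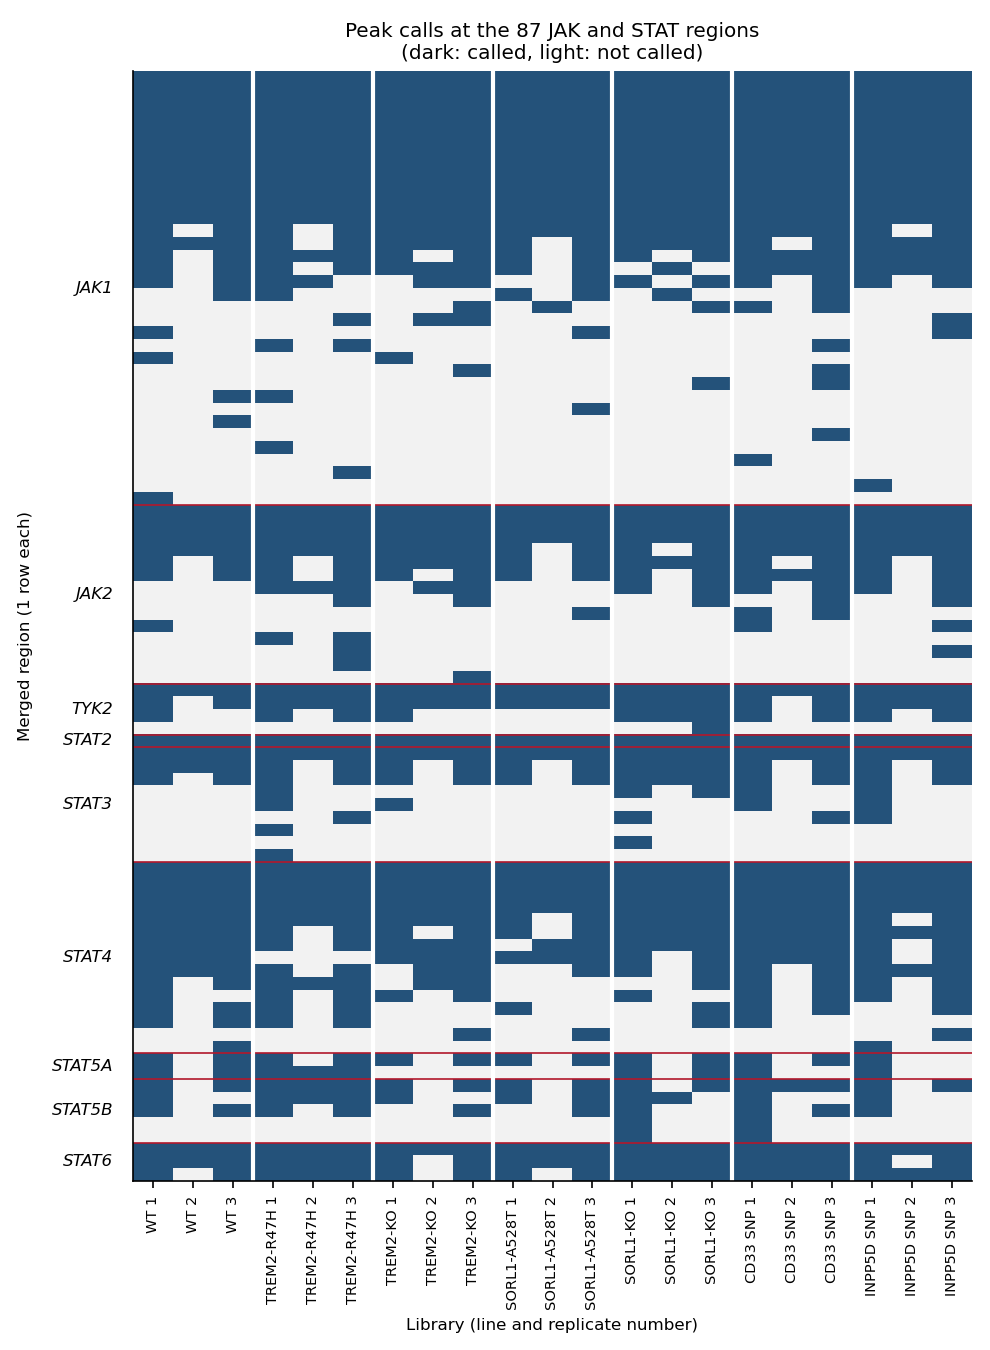
Calls at the 87 regions (rows, grouped by gene and sorted by the number of libraries with a call) in the 21 libraries (columns, 3 per line), dark where a peak was called. JAK1 has 12 rows called in all libraries, and the replicate 2 columns hold the fewest calls, 237 against 372 in replicate 1 and 377 in replicate 3.

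JAK1, the kinase shared by interferon, IL-6-family and common gamma chain receptors, had the most regions called everywhere. Its 34 regions, 33 of them touching the gene, included 12 with a call in every library and 8 with a single call. Both start regions were among the 12: the outer one (chr1:65066219-65069280), at the start of the longest transcripts, and one 101.4 kb further in (chr1:64965072-64967636) with the 6 GC boxes shown above. The outer start region was 1653 to 2887 bp wide with a median of 2465 bp, and the inner one 1157 to 2565 bp with a median of 1957 bp. The other 10 lay inside the gene, from 11.5 to 218.1 kb past the outer start, with median widths of 756 to 2369 bp. The widest of them, 65.4 kb in (chr1:65000963-65003808), was 2276 to 2761 bp in SORL1-KO, where all 3 libraries were wide, while in WT it was 2646, 972 and 2386 bp in replicates 1 to 3. The line share of JAK1 regions called ran from 49.0 ± 3.4% in SORL1-KO to 55.9 ± 11.8% in CD33 SNP (SD, n = 3), and was not tested on its own.

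JAK2 transmits signals of GM-CSF, interferon gamma and erythropoietin receptors. Unlike JAK1, 11 of its 14 regions lay outside the gene, all upstream, and only 3 touched it. Its start region (chr9:4983889-4986799) was called in all libraries at 1683 to 2873 bp, and stood nearer the top of the deposited lists than any other region of the 9 genes, at a median of 98.6 where 100 is the first line. That order is the peak caller's own, and is used only within a list. Of its 4 start windows, 2 were covered in 21 libraries, 1 in 20 and 1, further inside the gene, in 0, as were 31.8% of the windows of all genes. Both regions 47.5 kb (chr9:4935884-4937900) and 45.2 kb (chr9:4938548-4939814) upstream were called in all 21 as well. Of the other 9 upstream regions, those 12.9, 54.5 and 4.0 kb away were called in 19, 16 and 15 libraries and the rest in 1 to 5. The farthest, 59.6 kb from the gene, had calls in 2 libraries, and no region of the 9 genes lay near the 100 kb limit. The share of JAK2 regions called was 40.5 ± 10.9% in WT, 57.1 ± 21.4% in TREM2-R47H, 54.8 ± 16.5% in CD33 SNP and 50.0 ± 21.4% in INPP5D SNP. It was 50.0 ± 12.4% in TREM2-KO, 45.2 ± 14.9% in SORL1-KO and 38.1 ± 14.9% in SORL1-A528T. These SDs also hold the depth difference between replicates.

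Among the 23 JAK and STAT regions called in all libraries, the one 47.5 kb upstream of JAK2 had the largest F for a width difference among the lines, 3.64, though several others ranged over more base pairs. In WT its replicates 1 to 3 were called over 939, 501 and 627 bp, in TREM2-R47H over 1651, 933 and 1656 bp, and in TREM2-KO over 1130, 1046 and 1350 bp. The TREM2-KO libraries lay above all WT libraries, as at 1.23% of the 25599 regions called in all libraries, and the TREM2-R47H range overlapped that of WT at 933 and 939 bp. It spanned 1152, 632 and 650 bp in SORL1-A528T, 778, 628 and 755 bp in SORL1-KO, 759, 766 and 1379 bp in CD33 SNP, and 663, 863 and 1211 bp in INPP5D SNP, all 4 overlapping WT. By limma on log2 widths the differences from WT were 0.95 in TREM2-R47H (SE 0.26, adjusted p = 0.637) and 0.83 in TREM2-KO (SE 0.26, adjusted p = 1). Neither passed after adjustment over 25599 regions. The WT libraries enter both differences.

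TYK2, the kinase of interferon alpha and IL-12-family receptors, had a compact pattern of 4 regions. The start region (chr19:10379881-10381367) was called in all 21 libraries at 790 to 1364 bp. A region 7.2 kb inside was called in 19, one 34.1 kb from the start, beyond the far end of the gene, in 11, and one 2.6 kb upstream in 1 library. The line share of its regions ran from 50.0 ± 25.0% in WT to 83.3 ± 14.4% in SORL1-KO, with 12 possible calls per line.

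**Figure D3:**
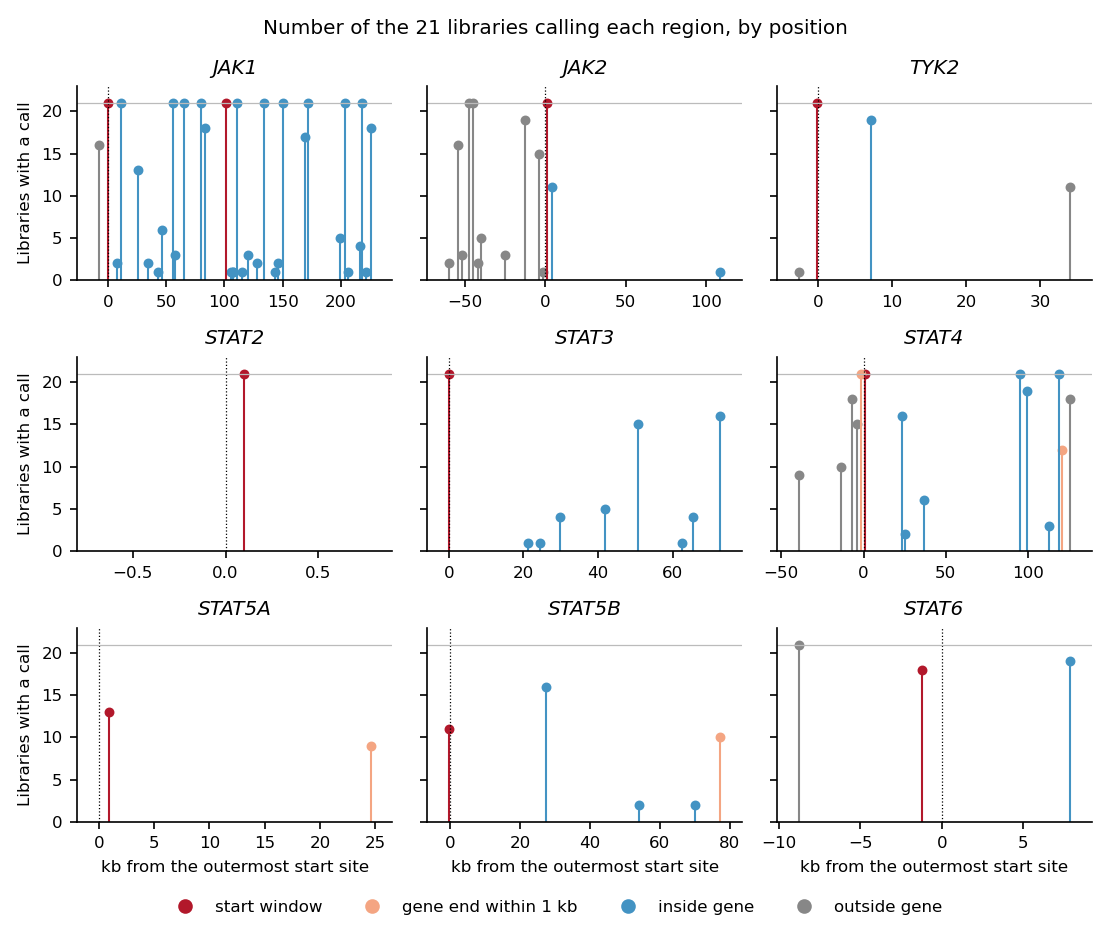
Number of libraries with a call (y axis, of 21, grey line) for each region against its distance from the outermost start with a RefSeq window (x axis, kb, positive into the gene), 1 panel per gene, coloured by place. For STAT5B the gene span reaches beyond that start. Regions called in all 21 spread through JAK1, lie upstream of the JAK2 start, and are found at both ends of STAT4.

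STAT2, the interferon alpha factor that joins IRF9 in the ISGF3 complex, had 1 region, over its start (chr12:56358760-56361209), called in all 21 libraries. That region also reaches an end of the neighbouring gene APOF. It was 1016 to 2281 bp wide in replicate 1, 757 to 1181 bp in replicate 2 and 905 to 2049 bp in replicate 3, and replicate 2 was the narrowest in 6 of 7 lines. Mean widths by line ran from 1054 ± 153 bp in INPP5D SNP to 1585 ± 668 bp in TREM2-R47H (SD, n = 3).

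STAT5B, STAT5A and STAT3 lie side by side on chromosome 17. Over all libraries 36% of the possible calls were made at STAT3 and 39% at STAT5B, the lowest of the 9 genes, and 52.4% at STAT5A. The share was 54% for the 87 regions and 44.4% for all regions. Of 16 regions between 42198616 and 42389411, only the STAT3 start was called in all 21 libraries. The 16 regions had 69 of 112 possible calls (61.6%) in the replicate 1 libraries, 47 (42%) in replicate 3 and 15 (13.4%) in replicate 2. For all 87 regions those shares were 61.1%, 61.9% and 38.9%, and for all regions of the series 48.4%, 53.4% and 31.3%. By line, TREM2-R47H had 25 of 48 calls there, SORL1-KO 24, CD33 SNP 21, WT 17, INPP5D SNP 16, TREM2-KO 14 and SORL1-A528T 14. The shares of all regions called were 45.7%, 43.6%, 49.1%, 46.2%, 42.9%, 46.6% and 36.3% in that order.

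STAT3, the factor of IL-6 and IL-10 signals, had a start region (chr17:42387537-42389411) of 627 to 1874 bp. Its 8 other regions were inside the gene, called in 16, 15, 5, 4, 4, 1, 1 and 1 libraries. The 2 called most often lay 72.8 kb and 50.8 kb past the start, and each was called in 7 of 7 replicate 1 and 7 of 7 replicate 3 libraries.

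STAT5A and STAT5B, close relatives activated by GM-CSF, IL-3 and IL-2 family receptors, have neighbouring starts on opposite strands. The region over the STAT5A starts (chr17:42286716-42289937) also reached the outer end of the STAT5B span, and was given to STAT5A, with which it shared more bases. It was called in 13 libraries, in 0 of 7 replicate 2 libraries. Replicates 1 and 3 were called over 2609 and 501 bp in WT, 3031 and 2541 bp in TREM2-R47H, 1961 and 501 bp in TREM2-KO, 645 and 764 bp in SORL1-A528T, 2619 and 1276 bp in SORL1-KO, 926 and 647 bp in CD33 SNP, and 1562 and 0 bp in INPP5D SNP. The narrower of the pair was wider in TREM2-R47H than in any other line. Among the 44 JAK and STAT regions called in 12 or more libraries, this was the 1 (2.27%) with no replicate 2 call, and 3.08% of all such regions had none.

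The STAT5B start region (chr17:42275838-42277541), over its RefSeq start window, lay inside the gene span and not at its outer end. It was called in 11 libraries, in 7 of 7 replicate 1, 2 of 7 replicate 2 and 2 of 7 replicate 3 libraries. TREM2-R47H had calls in all 3 libraries, over 1544, 501 and 665 bp, and SORL1-KO and SORL1-A528T in 2 each. In WT, TREM2-KO, CD33 SNP and INPP5D SNP only replicate 1 had a call, over 1202, 628, 1430 and 1581 bp. The region at the far ends of STAT5A and STAT3 (chr17:42311409-42312769) had 3 of 3 calls in TREM2-R47H, 2 in WT and SORL1-KO, 1 in CD33 SNP and INPP5D SNP, and 0 in TREM2-KO and SORL1-A528T. These per-line counts carry no test. The starts of the 9 genes also differed in their place in the deposited lists, where the median percentile was 98.6 for JAK2, 96.2 for STAT2, 94.5 and 93.7 for the inner and outer JAK1 starts, 93.1 for STAT3, 88.3 for STAT6, 87.6 for STAT4, 86.8 for TYK2, 61.6 for STAT5A and 37 for STAT5B. The STAT5 starts were thus lowest where they were called at all.

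STAT4, the factor of IL-12 and interferon alpha signals in lymphoid and myeloid cells, had 15 regions over and around a gene of more than 100 kb. Its start region (chr2:191149992-191152024) was called in all 21 libraries at 1222 to 2009 bp, and so were a region just upstream (chr2:191152473-191153494) and 2 near the far end, 95.1 kb and 118.6 kb past the start. The upstream neighbour was called over 501 bp in all 3 TREM2-R47H libraries and over 626, 646 and 627 bp in WT. The log2 width difference was -0.43 (SE 0.25, limma adjusted p = 0.996), and 501 bp is close to the caller's peak size of 500 bp. The gene's other regions were called in 19, 18, 18, 16, 15, 12, 10, 9, 6, 3 and 2 libraries, and those 6.9 kb and 4.2 kb upstream of the start were among the more frequent, at 18 and 15. WT called 77.8 ± 15.4% of the STAT4 regions, CD33 SNP 73.3 ± 17.6%, INPP5D SNP 68.9 ± 25.2%, TREM2-R47H 66.7 ± 23.1%, TREM2-KO 66.7 ± 11.5%, SORL1-KO 64.4 ± 16.8% and SORL1-A528T 53.3 ± 13.3%. At the upstream neighbour a width of 501 bp was also the narrowest in TREM2-KO, SORL1-KO and INPP5D SNP.

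STAT6, the factor of IL-4 and IL-13 signals, had 3 regions. The one 8.8 kb upstream (chr12:57118451-57119730) was called in all 21 libraries, one 7.9 kb inside in 19, and the start region (chr12:57110025-57112875) in 18. The start region was missing in replicate 2 of WT, TREM2-KO and SORL1-A528T and called there over 1527 bp in TREM2-R47H, 1726 bp in SORL1-KO, 934 bp in CD33 SNP and 783 bp in INPP5D SNP. In replicate 1 all 7 lines lay between 2578 and 2787 bp, and in replicate 3 between 1658 bp in WT and 2614 bp in TREM2-R47H. The 3 missing calls all fell in the shallow replicate, and the deep replicate was nearly level across lines. Within replicate 2 the calls were not ordered by tags. Libraries without the call held 15464506 tags in WT, 15813725 in TREM2-KO and 14176501 in SORL1-A528T. Those with it held 12754426 in SORL1-KO, 16340058 in INPP5D SNP, 16873086 in TREM2-R47H and 17462372 in CD33 SNP. The part of depth in the missing calls was not tested.

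**Figure D4:**
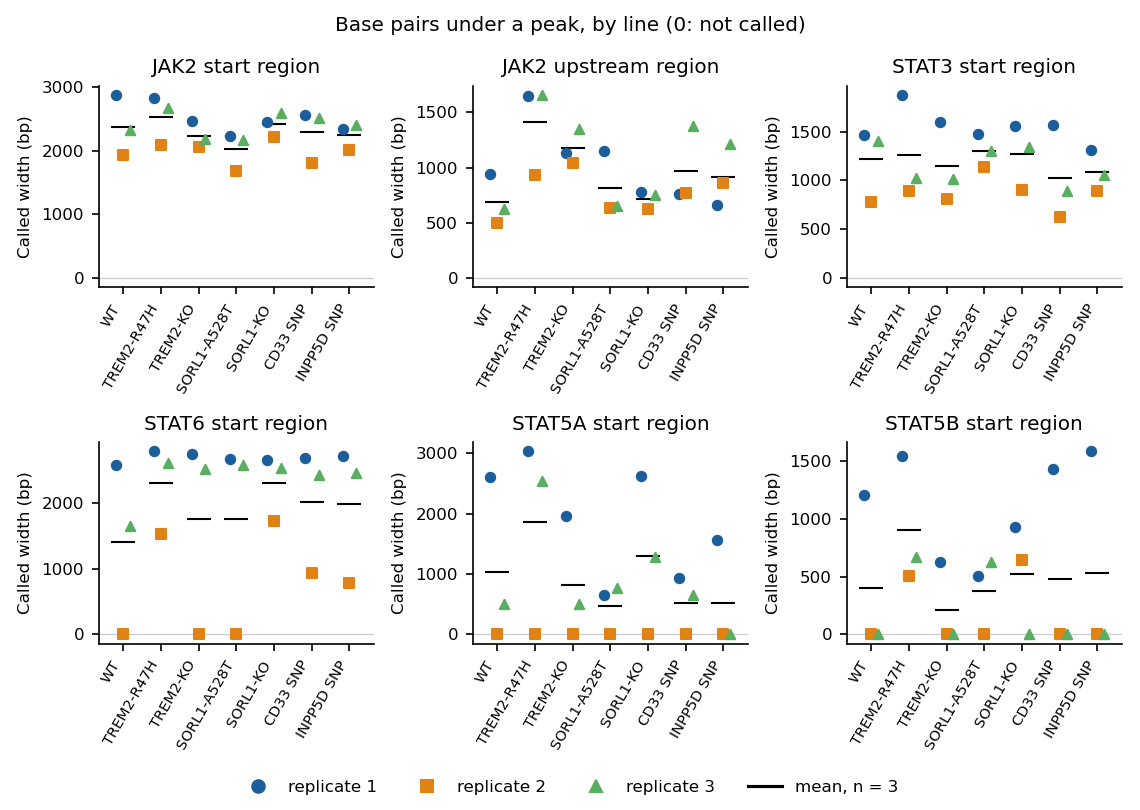
Base pairs under a peak (y axis) at 6 regions in each of the 7 lines (x axis), 1 point per library with the mean of 3 as a bar and 0 where no peak was called. The upstream region is the one 47.5 kb before JAK2, and at the STAT6, STAT5A and STAT5B starts the replicate 2 points lie lowest or at 0 in most lines.

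Calls were compared between lines gene by gene with a call score, the share of a gene's regions called in a library minus the share expected from regions called equally often over the series in that library. The score is 0 for a gene called like others of equal recurrence. It was tested by limma over the 8430 genes with at least 5 regions, among them JAK1, JAK2, STAT3, STAT4 and STAT5B. STAT2, STAT5A, STAT6 and TYK2 had too few regions. Of the 5, 0 passed the adjusted threshold of 0.05 among the 7 lines (0% of all genes passed) or in any line against WT, where 0% of all genes passed in 5 lines and 0.0119% in INPP5D SNP. Unadjusted p among the lines was 0.971 for JAK1, 0.605 for STAT5B, 0.454 for STAT3, 0.428 for STAT4 and 0.314 for JAK2, and 6.17% of all genes were under 0.05. In sorted populations, fewer cells with an open site and less opening per cell cannot be told apart.

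JAK2 scored lowest in WT. Its WT scores were -0.0885, -0.0226 and -0.156 in replicates 1 to 3, and those of TREM2-R47H 0.0241, -0.000951 and 0.213, with no overlap. The difference was 0.167 (SE 0.0667, limma adjusted p = 0.509), in a comparison where 8.52% of all genes had an unadjusted p under 0.05 and 10.2% had all 3 TREM2-R47H libraries above WT. TREM2-KO did not overlap WT either, as for 2.1% of all genes. The means of the other 5 lines were above WT by 0.125 in INPP5D SNP, 0.113 in CD33 SNP, 0.0832 in TREM2-KO, 0.0697 in SORL1-KO and 0.0643 in SORL1-A528T, with adjusted p of 0.934 to 1. WT was below all 6 edited lines for 11.2% of all genes, and all 6 comparisons use the same 3 WT libraries. The TREM2-R47H difference was 0.0422 with lists of equal length, 0.272 with regions within 10 kb only, and 0.1 without TREM2-R47H replicate 3.

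STAT4 scored highest in WT. Its WT scores were 0.0421, 0.175 and 0.0529, against -0.0845, -0.0686 and 0.0409 in SORL1-KO, where the difference was -0.127 (SE 0.0631, limma adjusted p = 0.931). It was -0.121 in SORL1-A528T, -0.119 in TREM2-R47H, -0.106 in TREM2-KO, -0.0960 in CD33 SNP and -0.0602 in INPP5D SNP, none past the threshold. The first 4 of these lines did not overlap WT, as for 6.75%, 6.52%, 6.22% and 5.34% of all genes in that direction, and WT was above all 6 edited lines for 10.9% of genes. Without the replicate 2 libraries, which include the highest WT score, the SORL1-KO difference was -0.0693.

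STAT3 and STAT5B varied more from library to library. The largest STAT3 difference was 0.215 in SORL1-KO (SE 0.118, limma adjusted p = 0.931), whose scores of 0.264, 0.0906 and 0.0498 lay above the WT scores of -0.148, 0.0477 and -0.141, as for 8.86% of all genes in that line. For STAT5B it was 0.206 in TREM2-R47H (SE 0.169, limma adjusted p = 0.737), whose scores of 0.088, 0.234 and 0.0256 lay above those of WT, 0.00303, -0.0941 and -0.18, as for 10.2% of all genes in that line. That difference was 0.0635 when at least 50% of a region had to be covered, and the STAT3 difference was 0.117 without the replicate 1 libraries. STAT5B scores in SORL1-KO ranged from -0.291 to 0.518, and in CD33 SNP from -0.214 to 0.418. JAK1, with the most regions, had the narrowest differences, from -0.0113 to 0.035.

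**Figure D5:**
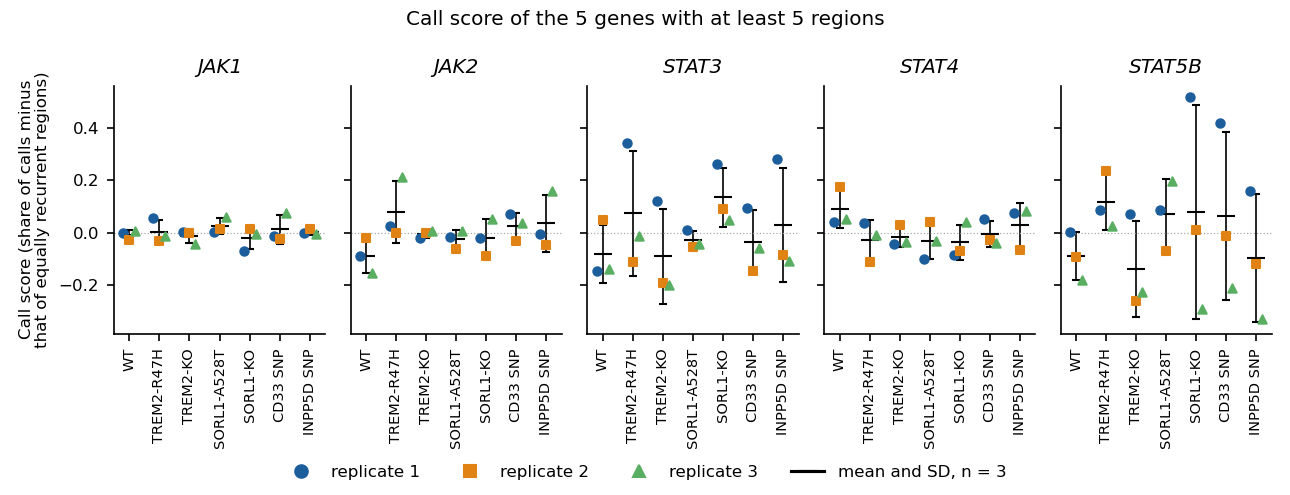
Call score (y axis, share of calls minus that of equally recurrent regions) of JAK1, JAK2, STAT3, STAT4 and STAT5B by line (x axis), 1 point per library with mean and SD of 3. JAK2 is lowest and STAT4 highest in WT, and JAK1 stays nearest to 0.

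Called widths were tested at the 23 JAK and STAT regions called in all 21 libraries, after centring each library on its median. Among the 7 lines 0 of 23 passed the adjusted threshold, against 0.00391% of 25599 regions, and 1, the region 47.5 kb upstream of JAK2, had an unadjusted p under 0.05 (limma F test, adjusted p = 0.952), against 4.08% of all regions. Of 138 line and region pairs 0 passed, where 0.00781% of regions passed in TREM2-R47H and 0% in the other lines, and 5 had an unadjusted p under 0.05, against 3.4% of all such pairs. Besides the 2 pairs at JAK2 these were JAK1 regions 218.1 kb (log2 difference -0.44, SE 0.21) and 11.5 kb (-0.33, SE 0.15) into the gene in TREM2-R47H, and the STAT6 region 8.8 kb upstream in SORL1-A528T (0.45, SE 0.19), with limma adjusted p of 0.979, 0.979 and 0.946. The start regions of JAK1, JAK2, TYK2, STAT2, STAT3 and STAT4 had 0 such pairs.

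All-or-none regions, with calls in every library of an edited line and in none of WT (gained) or the reverse (lost), were found at these genes in TREM2-R47H only, and were counted without a test. JAK2 had 1 gained region (1.15% of the 87, against 0.127% of all regions), 3.9 kb past its start (chr9:4987717-4988915). It was called over 501 bp in each of the 3 TREM2-R47H libraries, in 2 of 3 libraries of TREM2-KO, SORL1-KO, CD33 SNP and INPP5D SNP, and in 0 of 3 of SORL1-A528T and WT. The calls were narrow and low in the lists, with TREM2-R47H at percentiles of 10.9, 19.4 and 10.3. With lists of equal length TREM2-R47H kept 0 of these 3 calls.

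STAT4 had 1 lost region (1.15%, against 0.303% of all regions), 23.2 kb past its start (chr2:191127915-191128838). WT called it over 638, 693 and 639 bp at percentiles of 42.2, 58.7 and 73.5, TREM2-R47H in 0 of 3 libraries, TREM2-KO, SORL1-A528T and CD33 SNP in 3 of 3, and SORL1-KO and INPP5D SNP in 2 of 3. TREM2-R47H was the only line without a call. With lists of equal length WT had 2 calls and TREM2-R47H 0. The other 5 lines had 0 gained regions among the 87, where 0.048% of all regions were gained in TREM2-KO, 0.0114% in SORL1-A528T, 0.0624% in SORL1-KO, 0.0954% in CD33 SNP and 0.0276% in INPP5D SNP. They had 0 lost ones, against 0.0576%, 0.487%, 0.233%, 0.0414% and 0.142% in that order. With all 6 lines pooled, 1 of 522 region and line pairs was gained (0.192%) and 1 lost (0.192%). Over all 166736 regions the same 6 lines had 620 gained and 2108 lost. No region of the 9 genes was missing from all libraries of exactly 1 line and called in all others.

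Other genes of the pathway were read from lists of receptors, inhibitors and target genes. Of 20 receptor genes with at least 5 regions, 0 passed the limma test in either direction in any line, and of 120 gene and line pairs 6 were above and 1 below WT at an unadjusted p under 0.05. The smallest F test p-values were 0.0197 for LIFR, a receptor chain of the IL-6 family, 0.0403 for IFNAR1 and 0.0495 for IFNGR2, interferon receptor chains, with adjusted p of 0.764, 0.797 and 0.808. Of 12 inhibitors 0 passed, and 2 pairs were above and 1 below at that level out of 72. SOCS3, the feedback inhibitor of STAT3 signals, had the smallest p, 0.0915. Of 7 target genes 0 passed, and 0 of 42 pairs were under 0.05. Over all genes 4.36% of pairs were. The median F was 0.996 for the 5 JAK and STAT genes, 0.971 for receptors, 0.803 for inhibitors and 1.08 for targets, beside 0.989 for all genes.

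Start windows were under a peak in all 21 libraries for 6 of the 9 JAK and STAT genes, 9 of 22 receptors, 9 of 14 inhibitors and 4 of 6 targets, beside 43% of the 15812 genes with a window. The receptors IL12RB1 and EPOR and the inhibitor PTPN2 had a start window called in 0 libraries, and are named after their values were seen. Of the windows of all genes, counted by window and not by gene, 31.8% were called in 0 libraries. IFNAR1 was called in 21, LIFR and SOCS3 in 15, and IFNGR2 in 10.

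By the rule that takes the JAK or STAT gene with the most regions, the 3 genes whose call score was most like that of JAK1 over the 21 libraries, out of 8429, were ARHGAP36 (Pearson r 0.723, 9 regions), ARHGEF3 (0.674, 27 regions) and LOC105377015 (0.672, 9 regions). These are the highest of many and are given as a description; the points share libraries and depth.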

How the data were processed

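Each library came as 1 peak list of positions and scores. The submitters' processing notes name HOMER 4.10, STAR 2.7, cutadapt 1.18 and DESeq2, without roles. Per the file headers, HOMER findPeaks called peaks in histone style in each library alone, without a control, using peaks of 500 bp at least 1000 bp apart, 4.00 times the tags of the local 10000 bp and a Poisson p of 1.00e-04. The score deposited by the authors is 1 for all peaks, so height was not analysed and width and file order were used. Peaks off chromosomes 1 to 22 and X (0.0821%) were left out. Regions over several spans went to the gene sharing most bases.

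Call scores and log2 widths were fitted with limma 3.58.1 in R 4.3.3 over all 21 libraries (Benjamini-Hochberg over all genes or regions). The JAK and STAT genes, the pathway lists and the cell type markers were chosen with earlier results of these data known. Regions named singly were those at gene ends, called in all libraries or all-or-none against WT, and up to 4 list genes by the smallest F test p. Some other regions were named after their values were seen. Alternatives were the overlap, list length, distance, region and replicate choices of the closing section. The fits were tested on simulated data.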

Additional observations from a re-analysis of the deposited data

How the results depend on the processing

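No JAK or STAT gene passed a test under any alternative run on it. The largest call score difference of each of the 5 genes tested kept its sign wherever the gene was tested. STAT3 and STAT5B had too few regions to be tested with at least 10 regions per gene or with lists of equal length. The JAK1 difference of 0.035 in SORL1-A528T ran from 0.00883 with 50% of a region covered to 0.0536 with regions called in at least 2 libraries. Counts over all genes by call score, 0 among the lines, became 1 with at least 10 regions per gene, with at least 1 region per gene and with lists of equal length. In TREM2-R47H they became 1 with lists of equal length and in CD33 SNP 1 with at least 1 region per gene. In INPP5D SNP the 1 gene became 0 with 50% of a region covered, with at least 10 or at least 1 region per gene, with regions within 10 kb and with lists of equal length, and was 0 whenever a replicate was left out. Regions called by width among the lines, 1 at first, became 3 with 1 peak in every library and 0 to 6 when a replicate number was left out. The 2 in TREM2-R47H became 1 by quantile normalization, 0 without centring and 1 by the widest peak, and 0 to 2 with a library left out. The 0 in SORL1-A528T became 1 without centring, by the widest peak or with 1 peak in every library, and 0 to 7 with a library left out. With 50% of a region covered the gained region of TREM2-R47H became 0, its lost regions 2 and the gained regions of TREM2-KO 1, at the JAK2 region 47.5 kb upstream. With lists of equal length both TREM2-R47H counts became 0. Shares of JAK and STAT regions called also moved with lists of equal length. They became 34.9% in WT and CD33 SNP, 35.2% in TREM2-R47H and 35.6% in TREM2-KO, SORL1-KO and INPP5D SNP. The share of SORL1-A528T, the lowest in the main setting, then lay close to these. Shares became 61.6% in TREM2-KO with regions called in at least 2 libraries and 45.2% in SORL1-KO with 50% covered. The cause was not tested.

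Same-numbered libraries correlated over 0.1 in call score in 47 of 63 pairs (lowest -0.0644, median 0.177, against -0.117 for other pairs). In width 59 of 63 did (lowest 0.0753, median 0.284, against -0.128 for other pairs). The main fits took no account of replicate number, so this shared variation stayed within the spread that their p-values measure. With a replicate block the regions called by width became 7 among the lines and 1 in SORL1-A528T, and no other count moved by over 1.5 times. The largest call score difference of each of the 5 genes then had a limma adjusted p of 0.259 to 0.891. Giving the shared STAT5 region to STAT5B, chosen after seeing the data, made its TREM2-R47H difference 0.175 (limma adjusted p = 0.769). Replicate 2 had the fewest tags, with 29 to 38 of the 87 regions called, and 3 libraries per line limit every comparison.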
